A study of Mus musculus with 8 samples.

Results

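The genes of the NMDA receptor subunits were followed in the NAc (nucleus accumbens), a part of the ventral striatum that serves motivation. They were chosen by name, as every spot of the arrays, control spots excepted, that carried the name Grin1, Grin2a, Grin2b, Grin2c, Grin2d, Grin3a or Grin3b. This gave 7 genes of 34741 names and 11 probes of 55681 on the array, with several probes for 4 of the genes and 1 probe for the other 3. On each of the 8 arrays all 11 probes were well above background, and all were tested.

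The arrays held RNA from NAc micropunches of male C3H/HeN mice, an inbred strain, with 1 array per mouse. In the 4 maternal separation (MS) mice, pups had been separated from the dam for part of each day between postnatal days 2 and 14, and the dam had been stressed unpredictably during these sessions. The 4 control mice had not been separated. Mice of both groups were weaned on day 21. Both groups had done an operant task for a palatable reward and had been fasted before the brain was taken, so the levels are those of trained and fasted adults in both. The first part of the individual number was shared by 3 of the 4 MS mice and, with another value, by 3 of the 4 control mice. What it stands for is not given, and if it names a litter or a cage it cannot be told apart from the group. Nothing states that the mice of a group came from separate litters, so the p-values measure the spread between these mice.

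Most NMDA receptors are glutamate-gated cation channels that pass current mainly when the cell is already depolarised, since magnesium ions block the pore at rest. Each NMDA receptor is built of GluN1 subunits, which bind glycine or D-serine, together with GluN2 subunits, which bind glutamate, or with GluN3 subunits, which bind glycine. The GluN2 subunits set how long the channel stays open, and receptors with GluN2D close most slowly and are less sensitive to magnesium. GluN3A lowers the calcium permeability of the receptors it joins and is known from the postnatal brain, where it restrains the maturation of synapses. In the striatum, medium spiny neurons use mainly GluN2A and GluN2B, while Grin2d is known from interneurons and from pallidal, thalamic and midbrain neurons.

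The sequences of the probes on which the results turn are shown first, 5′ to 3′ and in the sense of the mRNA, as the array files give them. Grin3a was read by a pair of probes. One ends in TAG, a possible stop codon, so that it is shown whole with these bases in capitals (mm9 chromosome 4, 49678098 to 49678157, minus strand). No other stop lies in that frame of the probe, but whether it is the reading frame of Grin3a was not looked up. The other probe lies farther toward the 3′ end of the gene, and its middle 30 bases are shown (chr4:49674703-49674732).
Grin3a, A_55_P1980471: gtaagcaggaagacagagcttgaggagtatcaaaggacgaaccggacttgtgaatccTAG
Grin3a, A_52_P531731: tatgaaaatgaagtgcttctaagtatttcc

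Grin2d had a single probe, and Grin2a had 1 probe in which the groups did not overlap. The middle 30 bases of the Grin2d probe (chr7:53087874-53087903, minus strand) and the whole Grin2a probe (chr16:9579338-9579397, minus strand) are shown because these are the stretches on which the values below depend. Whether the probes lie in coding sequence or in a UTR was not analysed here.
Grin2d, A_55_P2125997: actcttttttaaacccgaaaagggcttttt
Grin2a, A_55_P1974035: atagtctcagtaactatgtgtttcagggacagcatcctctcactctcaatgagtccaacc

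Levels are given as the log2 of the processed signal minus the 75th percentile of the array, so that 0 is the 75th percentile and 1 unit is a doubling. They compare mice within a probe and not 1 probe with another. Differences are MS minus control with the standard error (SE) of the limma fit, and p-values were adjusted by Benjamini-Hochberg across the 33111 probes of the fit, calling those below 0.05. Of the 11 subunit probes 0 passed the threshold in limma, where 1 probe of all those tested passed (0.00302%). Without adjustment 4 of the 11 had p under 0.05, against 14.1% of all probes. The MS and control values did not overlap in 3 probes that were lower in MS mice, the Grin2d probe and both Grin3a probes, and in 1 Grin2a probe that was higher. Over all probes, 8.67% did not overlap, 4.91% lower and 3.76% higher. The study itself lists Grin2d and Grin3a as changed, from these same arrays, so their direction is not independent evidence. It reports 375 changed genes, and the table its authors deposited gave 375 called probes (1.2%) in the limma fit used here. The study also measured part of its changed genes by RT-qPCR, which these arrays do not hold.

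**Figure D1:**
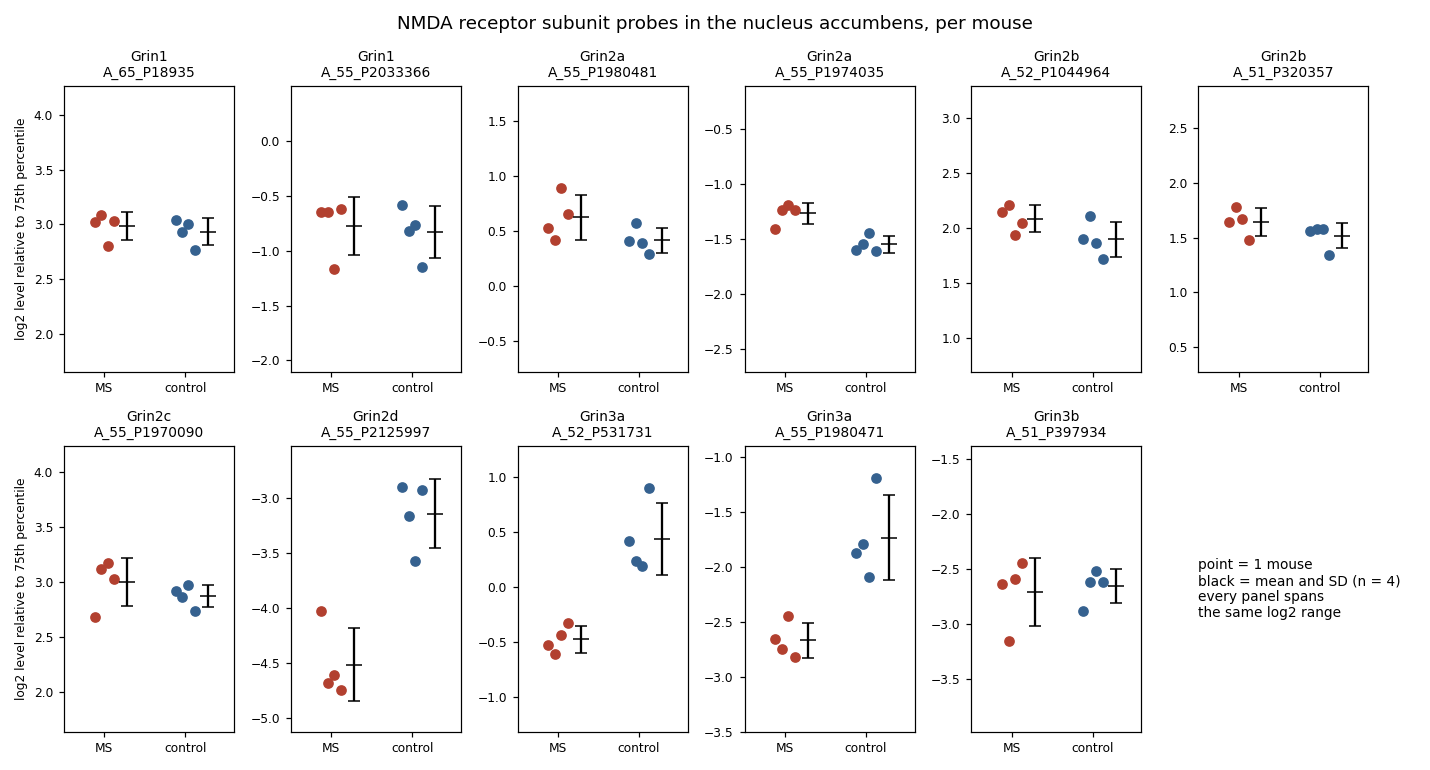
Log2 level relative to the 75th percentile of the array (y axis) of the 11 subunit probes in MS and control mice (x axis), 1 point per mouse, with the group mean and SD beside the points (n = 4). The MS points of Grin2d and of both Grin3a probes lie below all control points, and those of Grin1, Grin2b, Grin2c and Grin3b overlap with the controls.

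Grin2d, which encodes the slowly closing GluN2D subunit, had the largest difference of the 7 genes after 75th percentile scaling. Its log2 level was -4.03, -4.68, -4.61 and -4.75 in the MS mice and -2.90, -3.16, -3.57 and -2.92 in the control mice. Every MS mouse was below every control mouse, with the MS mouse nearest to the controls being replicate 1. The difference was -1.38 (SE 0.20, 95% interval -1.83 to -0.92, limma adjusted p = 0.0633), or 2.59-fold higher in controls, and it ranked 42nd by p among all probes. This probe was dim, with a processed signal between 14.2 and 19.7 in MS mice and between 24.9 and 56.8 in control mice. The size differed between ways of making the values. The difference was -0.47 (SE 0.08, limma adjusted p = 0.0108) with normexp background correction and an offset of 50, where 1.47% of probes were called, and -0.60 (SE 0.11, adjusted p = 0.0245) in the table the authors deposited, where 1.2% were called and no background was subtracted. In both of these the brighter Grin3a probe differed by more than Grin2d. Grin2d was called in 5 of the 9 alternatives that kept all 8 mice, namely normexp, the deposited table, median scaling (0.245% of probes called), a filter on all arrays (0.376%) and a variance trend with robust moderation (1.52%).

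The difference of Grin2d was of similar size in both rows of the slide and less so across its columns. Within the rows, each with MS and control arrays in equal number, it was -1.32 and -1.43. Within the 4 columns, each with 1 MS and 1 control array, it was -1.71, -0.46, -1.58 and -1.76. The sign was negative in all of them.

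Grin3a, which encodes the calcium-limiting GluN3A subunit, was lower in sign in both of its probes. At the probe nearer to the 3′ end (A_52_P531731), its log2 level was -0.52, -0.61, -0.44 and -0.33 in MS mice and 0.42, 0.24, 0.19 and 0.91 in control mice. No MS value reached the lowest control value, and control replicate 4 stood highest. The difference was -0.91 (SE 0.16, 95% interval -1.27 to -0.56, limma adjusted p = 0.0838), or 1.88-fold higher in controls.

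At the probe that ends in TAG (A_55_P1980471), the log2 level of Grin3a was -2.66, -2.75, -2.45 and -2.82 in MS mice and -1.87, -1.79, -2.09 and -1.19 in control mice. The groups again did not overlap, and the same control mouse was highest. The difference was -0.94 (SE 0.18, 95% interval -1.35 to -0.52, limma adjusted p = 0.101), within 0.02 of that at the other probe. After the group means were taken out, the levels at the 2 probes went together with r = 0.80 over the 8 arrays. Since both read the same gene in the same RNA, they are repeated readings and not replicates.

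Control replicate 4 also had the most probes above background, 69.7% of them, against 57.3% to 61.2% on the other 7 arrays. Without this mouse Grin3a differed by -0.76 (SE 0.10, limma adjusted p = 0.124) at the probe nearer to the 3′ end and by -0.75 (SE 0.12, adjusted p = 0.138) at the other, and Grin2d by -1.303 (SE 0.22, adjusted p = 0.147). The 3 probes thus kept their sign without it. Within the rows of the slide Grin3a (A_52_P531731) differed by -0.90 and -0.93, and within the columns by -0.86, -0.71, -0.56 and -1.51. In the deposited table the differences of Grin3a were -0.83 (SE 0.14, adjusted p = 0.0227) and -0.62 (SE 0.12, adjusted p = 0.0380), the second being that of the dimmer probe.

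**Figure D2:**
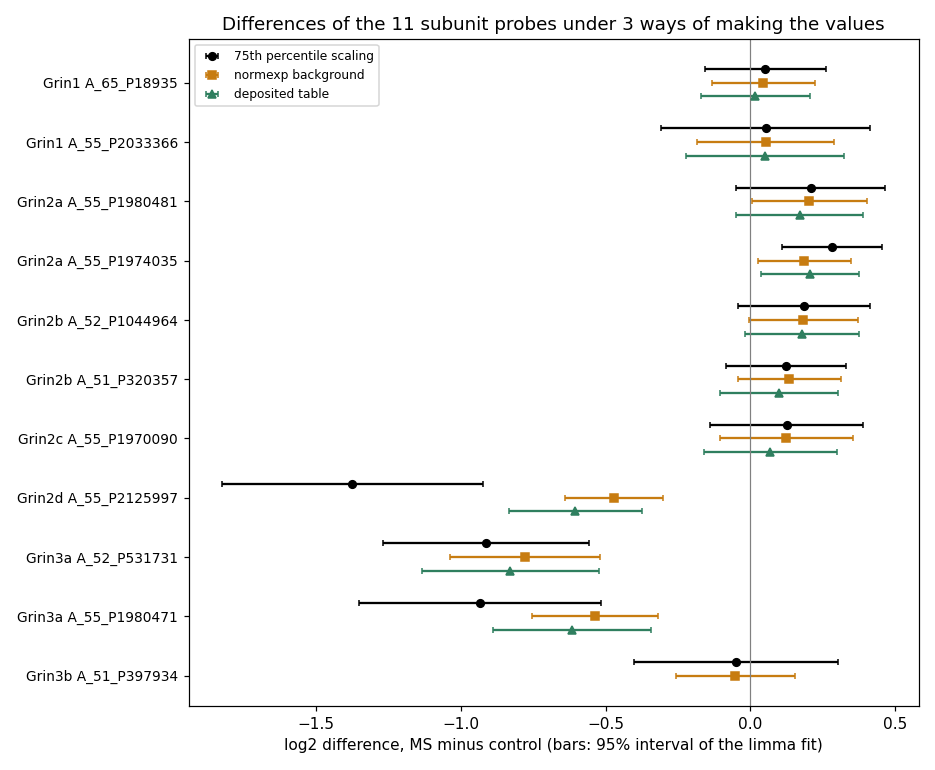
Log2 difference, MS minus control (x axis), of each of the 11 subunit probes (y axis) under 75th percentile scaling, normexp background correction and the deposited table, with the 95% interval of the limma fit as bars. The Grin2d difference was -1.38, -0.47 and -0.60 under these, while those of Grin1 stayed near 0, and Grin3b is not in the deposited table.

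Grin1, the subunit that every NMDA receptor needs, had levels that overlapped between groups at both probes. At the brighter probe (A_65_P18935; chromosome 2, 25146927 to 25146986) the log2 level was 3.02, 3.09, 2.80 and 3.03 in MS mice and 3.04, 2.93, 3.002 and 2.76 in control mice. The groups lay on top of each other, with a difference of 0.05 (SE 0.09, 95% interval -0.16 to 0.26, limma adjusted p = 0.850). At the other (A_55_P2033366), which the array design assigns to another transcript variant, the difference was 0.05 (SE 0.16, 95% interval -0.31 to 0.41, adjusted p = 0.922). The interval of the brighter probe leaves room for a change of Grin1 in either direction, but not for one of the size measured for Grin2d or Grin3a.

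Grin2a and Grin2b, the GluN2 subunits of spiny neurons, were slightly higher in sign at all 4 of their probes. For Grin2a the dimmer probe (A_55_P1974035) read -1.41, -1.23, -1.19 and -1.23 in MS mice and -1.60, -1.54, -1.45 and -1.61 in control mice, on the log2 level scale. All 4 MS values were above all control values, by a narrow margin, and the difference was 0.28 (SE 0.08, 95% interval 0.11 to 0.46, limma adjusted p = 0.169). The brighter Grin2a probe (A_55_P1980481; chromosome 16, 9577803 to 9577862) read 0.53, 0.42, 0.89 and 0.66 in MS mice and 0.40, 0.57, 0.39 and 0.29 in control mice. There the groups overlapped, with a difference of 0.21 (SE 0.11, adjusted p = 0.453), which was -0.01 within the first row of the slide and 0.43 within the second, and 0.12 without MS replicate 3. Both Grin2a probes lie in the same transcript, 1535 bases apart, a distance that is the same in the genome, and their levels around the group means went together with r = 0.39 only.

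Grin2b overlapped at both probes. The brighter (A_52_P1044964; chromosome 6, 135681653 to 135681712) had log2 levels of 2.14, 2.21, 1.93 and 2.05 in MS mice and 1.90, 2.11, 1.86 and 1.72 in control mice. The highest control mouse stood among the MS mice, and the difference was 0.19 (SE 0.10, 95% interval -0.04 to 0.42, limma adjusted p = 0.452). The other Grin2b probe (A_51_P320357) differed by 0.12 (SE 0.09, adjusted p = 0.588), and by 0.07 without control replicate 4 or 0.08 without MS replicate 2.

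The balance of Grin2a and Grin2b, which shapes the kinetics of most forebrain NMDA receptors, can be followed as the difference of their log2 levels within an array, where the scaling between arrays cancels. It was -1.61, -1.79, -1.04 and -1.39 in the MS mice and -1.50, -1.53, -1.47 and -1.43 in the control mice. At the brighter probe of each gene, used here, the control mice were closely alike and the MS mice spread to both sides of them. The means were -1.46 ± 0.32 in MS mice and -1.48 ± 0.04 in control mice (SD, n = 4 each). The difference was 0.02 (exact permutation test over 70 arrangements, two-sided p = 0.886, smallest possible p 0.0286). Its sign turned, to -0.01 in the deposited table and to -0.12 without MS replicate 3. The unlike spread of the groups was not tested, and it is given here for this pair of probes only. For Grin2a alone, the SD of the log2 level was 0.20 in MS and 0.12 in control mice at the brighter probe. It was 0.10 and 0.08 at the dimmer.

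The same subtraction set Grin2d and Grin3a against the obligatory subunit. Grin2d minus Grin1 was -7.04, -7.77, -7.41 and -7.78 in MS mice and -5.94, -6.09, -6.57 and -5.69 in control mice, on the log2 scale within an array. Grin3a minus Grin1 was -3.54, -3.70, -3.24 and -3.36 in MS mice and -2.62, -2.69, -2.81 and -1.86 in control mice. Neither overlapped between groups, and the group differences of -1.43 for Grin2d and -0.97 for Grin3a were as large as those of the genes alone. The scaling between arrays does not enter these values. Since Grin1 differed by only 0.05, they follow from the differences above and are not separate evidence. The background of a dim probe such as that of Grin2d still enters them.

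The last 2 subunits showed no separation of the groups. Grin2c, known from cerebellar granule cells and, in the forebrain, from astrocytes, had log2 levels of 2.68, 3.12, 3.17 and 3.02 in MS mice and 2.91, 2.87, 2.97 and 2.73 in control mice (A_55_P1970090). Its MS mice stood on both sides of the controls, with a difference of 0.13 (SE 0.12, 95% interval -0.14 to 0.39, limma adjusted p = 0.673). Single mice moved this small difference, which was 0.23 without MS replicate 1, 0.07 without MS replicate 3 and 0.08 without control replicate 4, and 0.07 in the deposited table. Grin3b, which is known mainly from motor neurons, had levels of -2.64, -3.15, -2.59 and -2.45 in MS mice and -2.88, -2.61, -2.52 and -2.61 in control mice (A_51_P397934), with a difference of -0.05 (SE 0.15, 95% interval -0.40 to 0.30, adjusted p = 0.926). Its sign turned, to 0.10, without MS replicate 2, the lowest mouse.

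Around the group means, the subunits did not move as a block. Over the 8 arrays, which share their scaling, r was 0.64 between Grin1 and Grin2b, -0.79 between Grin2c and Grin2d, -0.71 between Grin2b and Grin3a and 0.36 between Grin2d and Grin3a. Among 22758 other genes, those whose levels around the group means were most like Grin2d were Kcnd3os (r = 0.98), Homer3 (r = 0.98) and an unnamed non-coding region. For Grin3a they included Ccdc18 (r = 0.97) and another unnamed region, and for Grin1 they were Gfra4 (r = 0.996), a design name with no gene symbol, and Kirrel2 (r = 0.99). For Grin2a they were Trim9, Dimt1 and Xk (r from 0.97 to 0.98), for Grin2b Gm9510, Tcof1 and Dag1 (0.97 to 0.98), for Grin2c Slc2a8 and St6galnac6 (0.99) and a probe without a name, and for Grin3b Mpzl3, Ago4 and Slc36a1 (0.98 to 0.99). With so many genes and so few arrays, values this high are a description only.

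The partners of the receptor were taken from 5 lists of 74 genes in all, of which 66 were tested and 0 passed the threshold in limma, while 19 had p under 0.05 without adjustment, against 3147 of all 22759 genes. Over all genes 0.00439% passed. Groups did not overlap in 5 partner genes that were lower and 7 that were higher in MS mice. Of all genes 8.89% did not overlap, 5.24% lower and 3.65% higher. The median difference of all genes was -0.0001, with 11373 positive and 11386 negative.

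**Figure D3:**
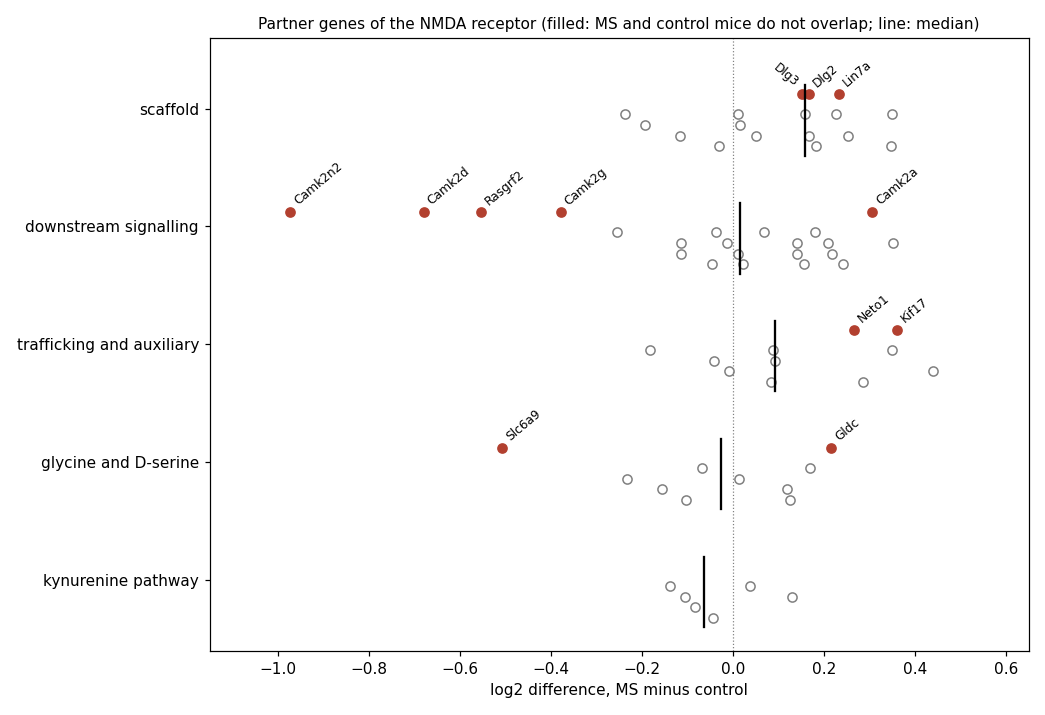
Log2 difference, MS minus control (x axis), of the tested genes of 5 partner lists (y axis), 1 point per gene, filled and named where the MS and control mice did not overlap, with the median of each list as a vertical line. Camk2n2 (-0.97), Camk2d (-0.68), Rasgrf2 (-0.55) and Slc6a9 (-0.51) lie farthest to the left among the named genes.

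The scaffold list, of proteins that hold the receptor at the postsynaptic density, had 13 of 17 tested genes with a positive difference and a median of 0.16. Its mean log2 level differed by 0.10, or by 0.07 without control replicate 4. The 3 genes without overlap were all higher, namely Lin7a (0.23, SE 0.07, limma adjusted p = 0.202), an adaptor of the postsynaptic complex, Dlg2 (0.17, SE 0.08, adjusted p = 0.396), which encodes PSD-93, and Dlg3 (0.15, SE 0.07, adjusted p = 0.403), which encodes SAP102. At these probes none of the sizes exceeded that of the dimmer Grin2a probe. The mean of the 2 Lin7a probes differed by more (0.31, SE 0.08, limma adjusted p = 0.166).

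The list of downstream signalling was split, with 12 of 22 genes positive and a median of 0.02. The CaMKII family, the calcium-dependent kinase that binds GluN2B and acts in synaptic plasticity, lay on both sides. Camk2a, the main isoform of forebrain neurons, had log2 levels of 3.40, 3.42, 3.50 and 3.43 in MS mice and 3.10, 3.16, 3.23 and 3.04 in control mice. All MS mice were above all controls, with a difference of 0.31 (SE 0.07, limma adjusted p = 0.121), while Camk2b overlapped (0.24, SE 0.14, adjusted p = 0.491). Camk2d (-0.68, SE 0.13, adjusted p = 0.0995) and Camk2g (-0.38, SE 0.08, adjusted p = 0.110), the isoforms that are less restricted to neurons, were lower without overlap. In each of these 4 isoforms the other tested probes, where there were any, had the same sign.

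Camk2n2, an inhibitor of CaMKII, had the largest difference of the partners. Its log2 level was 3.65, 3.09, 3.81 and 3.57 in MS mice and 4.46, 4.52, 4.22 and 4.81 in control mice. No values overlapped, and the difference was -0.97 (SE 0.17, limma adjusted p = 0.0909). The related inhibitor Camk2n1 overlapped between groups (0.14, SE 0.18, adjusted p = 0.778).

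Rasgrf2, an exchange factor that links NMDA receptors to Ras, read -3.08, -3.05, -2.92 and -3.04 in MS mice and -2.40, -2.56, -2.56 and -2.36 in control mice on the log2 level scale. The 4 mice of each group were close together and far from the other group, with a difference of -0.55 (SE 0.08, limma adjusted p = 0.0633), which was -0.30 with normexp. Rasgrf1 overlapped at its brighter probe (-0.26, SE 0.12, adjusted p = 0.385). Its other probe had the opposite sign, and the mean of the 2 differed by -0.05 (SE 0.07, limma adjusted p = 0.809). The study lists Rasgrf2, Camk2d and Camk2n2 as changed in these arrays as well.

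Of the trafficking and auxiliary proteins 8 of 11 were positive, with a median of 0.09. The mean log2 level of this list differed by 0.16, or by 0.11 without control replicate 4. Kif17, the kinesin that carries GluN2B vesicles into dendrites, had log2 levels of 1.49, 1.58, 1.51 and 1.48 in MS mice and 1.14, 1.16, 1.24 and 1.08 in control mice. Its groups were well apart at this probe, the brightest of 3, at a difference of 0.36 (SE 0.06, limma adjusted p = 0.0909). The 3 probes had the same sign, and their mean differed by less (0.25, SE 0.08, limma adjusted p = 0.231). Neto1, an auxiliary protein of NMDA and kainate receptors, was also higher without overlap (0.27, SE 0.09, adjusted p = 0.233).

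In the list of glycine and D-serine supply, 5 of the 10 tested genes were positive and 5 negative, with a median of -0.03. Slc6a9, which encodes the glycine transporter GlyT1 that keeps glycine low around NMDA receptors, had log2 levels of 3.79, 3.65, 3.76 and 3.70 in MS mice and 4.22, 4.12, 4.12 and 4.47 in control mice. No MS mouse reached the controls, at a difference of -0.51 (SE 0.09, limma adjusted p = 0.0909), and the study lists this gene too. Gldc, of the glycine cleavage system, was higher without overlap (0.22, SE 0.08, adjusted p = 0.287), whereas Srr, which makes D-serine, overlapped (0.13, SE 0.09, adjusted p = 0.597).

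The kynurenine pathway makes kynurenic acid, which blocks the glycine site, and quinolinic acid, which activates the receptor. Of its 11 genes 6 were tested, and none was without overlap. The 2 with the lowest p were Got2 (-0.10, SE 0.08, limma adjusted p = 0.616) and Kyat3 (-0.08, SE 0.08, adjusted p = 0.706), which can both form kynurenic acid.

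Markers of cell types also differed between the groups, some lists higher and some lower in MS mice. Whether they went with the subunits from mouse to mouse was not tested. In bulk tissue a smaller share of cells of a type cannot be told apart from less RNA per cell. The defining markers of spiny neurons, which make up most of the NAc, were all well above background. All 12 were positive (median 0.35), with 0 past the threshold of limma and 5 with unadjusted p under 0.05, and 1 of the 12 (Rarb) did not overlap. The mean log2 level of this list ran from 4.93 to 5.23 in MS mice and from 4.40 to 5.04 in control mice, a difference of 0.36. The lowest control value was that of replicate 4, and without this mouse the difference was 0.24.

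The pallidal list was negative in 7 of 9 genes, and these 7 did not overlap between groups. Its mean log2 level ran from 0.08 to 0.86 in MS mice and from 1.11 to 1.69 in control mice, a difference of -1.07, or -0.996 without control replicate 4. It included Npas1 (-2.26, limma adjusted p = 0.0709), Pvalb (-2.07, adjusted p = 0.145) and Lhx8 (-0.92, adjusted p = 0.0709). The 2 positive genes, Lhx6 (0.13, adjusted p = 0.625) and Kcnc1 (0.04, adjusted p = 0.884), overlapped, and each also had probes of the opposite sign. The part of this list in the lower Grin2d and Grin3a levels of the MS mice was not tested.

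Of the interneuron markers 10 of 11 were negative, with a median difference of -0.13. Their mean log2 level ran from 0.34 to 0.80 in MS mice and from 0.76 to 1.06 in control mice. Pvalb, which is also in the pallidal list, and Calb2 (-1.43, limma adjusted p = 0.154) did not overlap. Sst (-0.16), Npy (-0.12), Nos1 (-0.01) and Chat (-0.13) did overlap. The part of interneurons in the Grin2d values was not tested either. Of the 6 markers of excitatory neurons, 3 were tested, and Slc17a7 and Neurod6, which are known from cortical neurons, were among those too dim to be tested. The mean log2 level of the 3 tested ones ran from -4.17 to -0.85 in MS mice and from -2.44 to -0.62 in control mice, and 1 of the 3 was positive and 2 negative. Slc17a6 of subcortical neurons differed by -2.82 without overlap (SE 0.79, limma adjusted p = 0.183), while Tbr1 (-0.78, SE 1.03, adjusted p = 0.790) and Neurod2 (0.79, SE 0.82, adjusted p = 0.721) overlapped. Slc17a6 was well above background on only 3 MS arrays, which limits the size of its difference. Its log2 level ran from -6.35 to -2.24 in MS mice, and the lowest control value was -2.04.

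Astrocyte markers were negative in 6 of 8 genes and did not overlap in 3, Agt (-1.999, limma adjusted p = 0.0633), Ednrb (-0.61, adjusted p = 0.101) and Aldh1l1 (-0.25, adjusted p = 0.312). Their mean log2 level ran from 0.52 to 0.78 in MS mice and from 1.01 to 1.33 in control mice. The difference of this mean was -0.45, while the median difference of the genes was -0.20, with Agt by far the largest. Aqp4 (0.06) and Slc1a2 (0.16) were positive, as was Grin2c. The part of astrocytes in the lower Slc6a9 of the MS mice, a transporter of these cells, was not tested. Oligodendrocyte markers were negative in 6 of 6 genes and overlapped in all, with a mean level from 3.46 to 3.81 in MS mice and from 3.52 to 4.01 in control mice, a difference of -0.17, or -0.09 without control replicate 4.

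**Figure D4:**
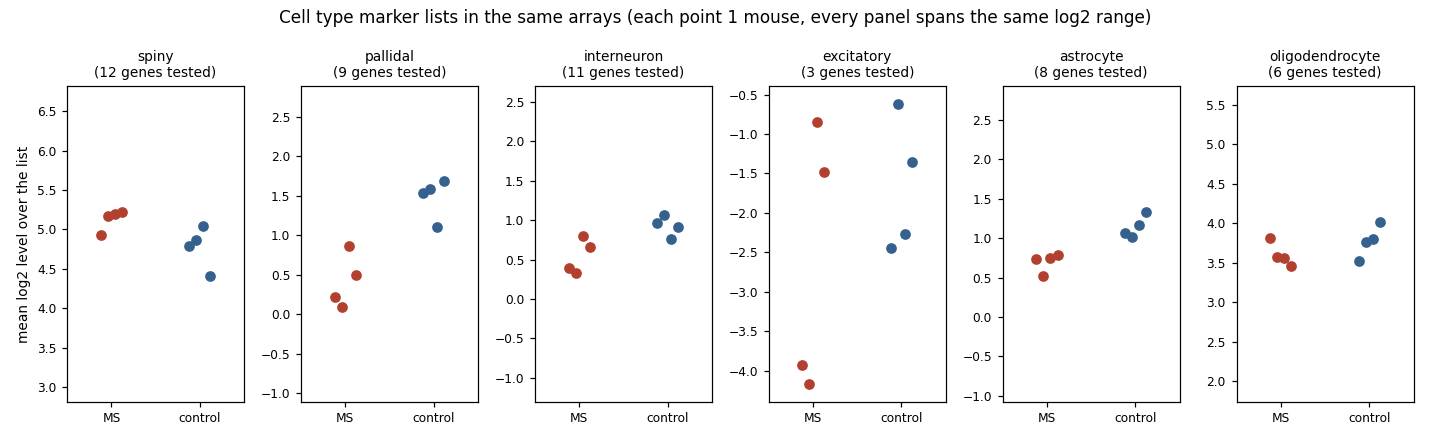
Mean log2 level relative to the 75th percentile of the array (y axis) of the tested genes of 6 cell type marker lists in MS and control mice (x axis), 1 point per mouse. The pallidal list of the MS mice lies from 0.08 to 0.86, below all control mice, and the astrocyte list from 0.52 to 0.78, likewise below all control mice.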

How the data were processed

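The deposited scanner files give linear intensity per spot. The authors made them with Agilent Feature Extraction 10.10.1.1, whose processed signal has the local background subtracted. Their deposited table of log2 values covers 31261 probes. It followed the log2 mean signal of each array with r of at least 0.9997, and each of its columns has a median of 8.01. It thus holds uncentred log2 levels from which no background was taken; the normalization between arrays is not given in the sources used here. Labelled cRNA came from 40 ng of RNA, and all 8 arrays lay on 1 slide. The array design in the headers differs from that in the methods of the study, and names and coordinates (mm9) are those of the headers.

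Controls and flagged outlier spots (122 to 189 on an array) were dropped, and spots of a probe were averaged. Log2 processed signals minus the 75th percentile of all non-control spots were tested with limma 3.58.1 (lmFit, eBayes) in R 4.3.3, over the probes that stood well above background on 4 or more of the 8 arrays. The number of arrays limits the precision. The code was tested on simulated data. Names came from the array design, updated through RefSeq (27235 probes by accession, 565 by an older symbol). A gene with several probes was represented in lists by its brightest. Named were all subunit probes, up to 6 partner genes a list without overlap and with the lowest p (otherwise 2), and for each subunit the 3 genes most like it, of which 1 is not reported here; Camk2b, Camk2n1, Rasgrf1, Srr and the markers named are beside this rule and were picked with their values known. Alternatives were normexp (offset 50), median and quantile scaling, other filters, the deposited table, trend and robust moderation, the slide row or column as a block, averaging the probes of a gene, and each mouse left out. The members, lists and tests were chosen with earlier results of these data known.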

Additional observations from a re-analysis of the deposited data

Results flagged for a closer look

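A mouse stood apart from the other 3 of its group in 2 of 22 sets of 4 values, the 11 subunit probes in each group, where chance flags about 1 set in 20. For Grin1 at probe A_55_P2033366, MS replicate 3 had a log2 level of -1.17, against -0.65 to -0.62 in the other MS mice, a gap of 0.95 of the range of the group. For Grin2b at probe A_51_P320357, control replicate 4 had a log2 level of 1.34, against 1.56 to 1.58 in the other control mice, a gap of 0.91 of the range.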

How the results depend on the processing

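No paired analysis was possible because the replicate numbers were given in accession order and only name the mice; the slide column, a position that holds 1 array of each group, entered as the block below. The count of subunit probes past the threshold, 0 here, was 3 with normexp, with the deposited table and with variance trend and robust moderation, and 2 with median scaling and with a filter on all arrays; these were Grin2d and, at 1 or both probes, Grin3a. With a mouse left out it ranged from 0 to 1, the 1 being Grin2d without control replicate 3 (limma adjusted p = 0.0427). The count of partner genes was 6 with normexp, 4 with the deposited table, 7 with trend and robust moderation and 1 (Rasgrf2) with a filter on all arrays. Over all probes the count of 1 became 486, 375, 504, 81 and 113 with normexp, deposited values, trend and robust moderation, median scaling and the filter on all arrays, 0 without a filter and when the slide column was a block, and 0 to 37 with a mouse left out; the cause was not tested. The adjusted p of Grin2d was 0.229 and those of Grin3a were 0.229 and 0.239 with the column block, and 0.236, 0.259 and 0.296 without a filter. The difference of Grin2a minus Grin2b reversed to -0.0095 in the deposited table and ranged from -0.12 to 0.13 with a mouse left out. With a mouse left out, Grin1 ranged from -0.0038 to 0.11 at its brighter probe and from -0.052 to 0.19 at the other, both lowest without control replicate 4, and Grin3b from -0.14 to 0.10, highest without MS replicate 2, so that their signs turned, whereas Grin2a, Grin2b, Grin2c, Grin2d and Grin3a and the 14 named partner genes kept their sign in every alternative run, none of them with a mouse left out past the threshold but Grin2d. With normexp the Grin2a difference at A_55_P1974035 was 0.19, against 0.28 here. Signal over background limits the Grin2d value, as its probe was dim.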
